A study of Mus musculus with 6 samples.

Results

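The collagens and stromal matrix genes form the scaffold that connective tissue cells lay down around the glands of an intestinal tumor. They were chosen by name: every collagen chain gene whose symbol has the usual form for an alpha chain, and a set of other matrix and mesenchymal genes, where a probe set of the array names that gene alone. The rule found 85 probe sets for 51 genes, of 20380 probe sets for 12393 genes that name a single gene. Collagen genes made up 36 of the 51 and other matrix or mesenchymal genes 15. Fbn1 and Loxl2, also in the rule, had no probe set that names them alone and are not analysed here.

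The study measured RNA of 6 mouse tumors on Affymetrix expression arrays, 3 from the duodenum and 3 from the cecum, each from a different mouse. Every mouse, in both groups, carried Apc1638N, an allele of the tumor suppressor gene Apc that predisposes to intestinal tumors, and was deficient in Rb1, the retinoblastoma tumor suppressor. The sources used here give no age, no strain and no way in which Rb1 was made deficient, and the duodenal group could take in tumor tissue from the pylorus. Normal tissue is not part of these data, so a difference between the tumor groups can include what already sets duodenum and cecum apart.

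Fibroblasts secrete most fibrillar collagen of the gut wall. Its chains are wound into helices inside the cell, trimmed outside it, packed into fibrils with small proteoglycans and cross-linked by lysyl oxidases. Type IV collagen instead forms the sheet-like network of basement membranes under epithelium and around vessels, and type VI collagen forms beaded filaments in the interstitial space. In tumors, activated fibroblasts that deposit collagens, fibronectin and periostin are a familiar part of the stroma.

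Of the 85 probe sets, 53 were bright enough to be tested, above the 40th percentile of their array (92.4 to 100.6) on at least 3 of the 6 arrays. They covered 33 of the 51 genes. The other 18 genes, all collagens, stayed between 0.9 and 137.5 in intensity: Col2a1, Col4a3, Col4a4, Col4a6, Col7a1, Col8a1, Col9a1, Col9a2, Col10a1, Col11a1, Col11a2, Col13a1, Col17a1, Col19a1, Col20a1, Col22a1, Col25a1 and Col26a1. These include collagens of cartilage, of hemidesmosomes and of the anchoring fibrils of skin. Fbln2 (3 arrays) and Col5a3 (4) lay just inside the filter, and Col11a2 and dim probe sets of Col9a3 and Eln (2 arrays each) just outside. Col11a2 had 108.8, 94.9 and 137.5 in duodenal tumors against 67.3, 67.7 and 66.8 in cecal tumors.

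Few of the stromal matrix genes differed between the sites by the main test, which did not pair the tumors. Of the 53 tested probe sets, 7 were higher in cecal tumors and 1 was lower (limma, Benjamini-Hochberg adjusted p below 0.05 over all 13866 tested probe sets). Those 7 are 13.2% of the tested members. In either direction 9.3% of all tested probe sets passed, with 5.24% called higher and 4.07% called lower. The 7 belonged to 4 genes, Col1a1, Col1a2, Col3a1 and Vim, and the 1 to Col4a5. A positive fold, passed or not, was found in 47 of the 53, against 44.1% of all tested probe sets. By gene, with the brightest probe set for each, 2 of 33 (6.06%) were higher and 1 lower, beside 5.7% and 4.73% of all tested genes, so the share of genes called higher was near that of all genes. A positive fold was found in 29 of the 33, against 43.5% of all tested genes. The median log2 fold of cecal over duodenal tumors was 0.42 for the members and -0.04 for all tested probe sets. All 3 cecal tumors lay above all 3 duodenal tumors in 23 of the 53, or 43.4%, and in 13.8% of all tested probe sets. In bulk tumor RNA, fewer cells of a type and less RNA per cell cannot be told apart.

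When replicate number was added to the fit as a block, which compares tumor 1 with tumor 1 and so on, it called 15 member probe sets higher and 1 lower, beside 6.12% and 5.21% of all tested probe sets. The 8 called without the block were among these 16. The others were the brightest probe sets of Col1a1 and Col4a1, Col6a3, both of Fn1 and all 3 of Bgn. With quantile normalization the members split into 7 higher and 0 lower, and with median centring into 10 and 0. The count of higher members dropped to 4 without duodenal tumor 1. Of all tested probe sets, 9.26% were called in either direction with quantile normalization and 9.26% with median centring. Without duodenal tumor 1 that share was 5.88%, against 9.3% in the main fit, so calls became fewer over all probe sets too.

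**Figure D1:**
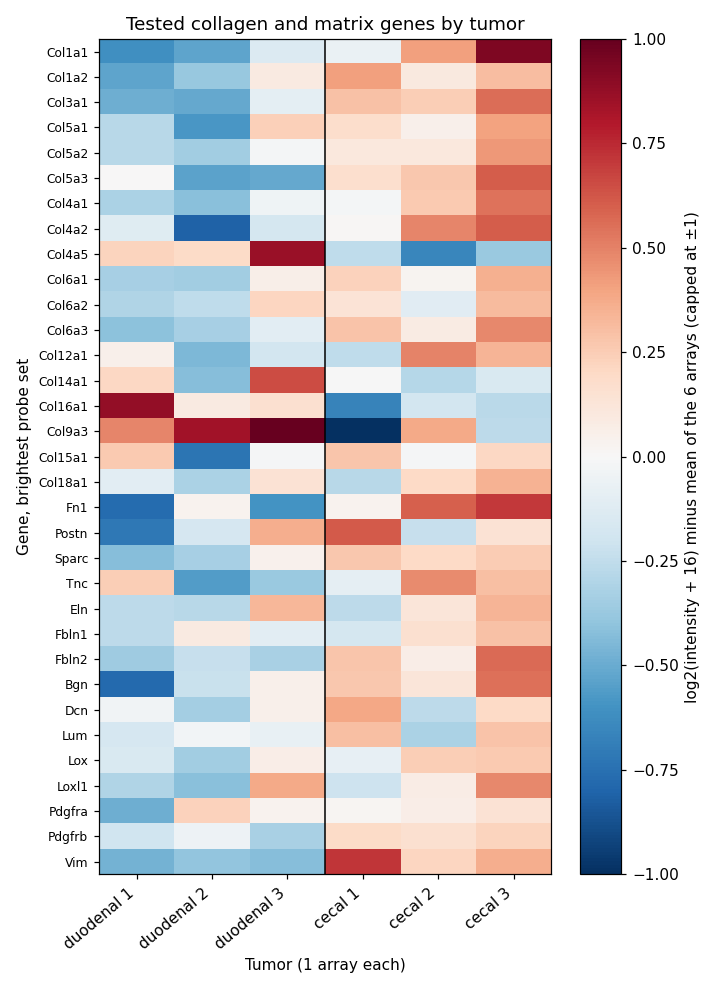
Each row is a tested member gene, by its brightest probe set, and each column is 1 tumor; colour is log2(intensity + 16) minus the gene's mean over the 6 arrays, capped at 1 either way. Of the 33 genes, 29 have a positive fold of cecal over duodenal tumors, and Col4a5, Col14a1, Col16a1 and Col9a3 have a negative one.

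Fibrillar collagens, which give connective tissue its tensile strength, held 4 of the 7 higher calls. All 12 tested probe sets of this class had a positive fold (0.13 to 1.10 on the log2 scale, median 0.62), 4 were called higher, and in 9 all cecal tumors lay above all duodenal tumors. Over all tested probe sets the shares were 44.1% with a positive fold, 5.24% called higher and 13.8% without overlap in that direction. The 12 came from 6 genes, and Col2a1, Col11a1 and Col11a2 were not tested.

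Col3a1, the sole chain of type III collagen, which runs with type I collagen in soft tissues, was the brightest member. Its brightest probe set had 3759.5, 3696.2 and 4930.7 in duodenal tumors 1, 2 and 3 and 6485, 6261.6 and 7796.9 in cecal tumors 1, 2 and 3. The groups did not overlap, and tumor 3 was the highest of each site. The log2 fold was 0.73 ± 0.15 (SE, n = 3 against 3; limma adjusted p = 0.0173). Its other probe set had 248.9, 258 and 295 in duodenal tumors against 770.9, 451.4 and 589.6 in cecal tumors, with a log2 fold of 1.10 ± 0.20 (limma adjusted p = 0.0122). The call of the brighter one was lost without duodenal tumor 1 (adjusted p = 0.0646) or cecal tumor 1 (0.058), and that of the other probe set was kept without any one array.

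Col1a1 and Col1a2 encode the chains of type I collagen, the main collagen of scar and stroma. The brighter Col1a1 probe set had 1008.6, 1071.6 and 1406.5 in duodenal tumors against 1482, 2058.9 and 2971.2 in cecal tumors. The groups did not overlap, but cecal tumor 1 was close to duodenal tumor 3. Its log2 fold of 0.85 ± 0.25 (SE) did not pass (limma adjusted p = 0.0736) and passed with the block (0.0101). The dimmer Col1a1 probe set, at 242, 266.7 and 277.3 in duodenal tumors against 358.8, 459.9 and 514.3 in cecal tumors, passed with a log2 fold of 0.71 ± 0.16 (limma adjusted p = 0.0316). That call was lost without any one array except cecal tumor 1 (adjusted p = 0.0624 to 0.117) and when dim probe sets were left in (0.0519).

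Col1a2 gave the same picture with its probe sets. The one that passed had 666.7, 834.9 and 885.4 in duodenal tumors against 1140.9, 1212.3 and 1563.4 in cecal tumors, a log2 fold of 0.70 ± 0.17 (limma adjusted p = 0.0377). All cecal tumors were above all duodenal tumors there, and the call was lost when any one array was left out (adjusted p = 0.0602 to 0.125) or dim probe sets were kept (0.0519). The brighter Col1a2 probe set had 1907.6, 2118.9 and 2928.8 in duodenal tumors against 3670.5, 2949.8 and 3424 in cecal tumors. Cecal tumor 2 was only just above duodenal tumor 3, and the log2 fold of 0.55 ± 0.17 did not pass (limma adjusted p = 0.0955).

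Type V collagen, whose chains nucleate type I fibrils and set their width, had no probe set past the test. Col5a2 had 1225.6, 1167.7 and 1467.7 in duodenal tumors against 1605.8, 1608.2 and 2012.8 in cecal tumors (log2 fold 0.43 ± 0.15 SE, limma adjusted p = 0.116). The sites did not overlap in this probe set, and the other Col5a2 probe set had a log2 fold of 0.53 (limma adjusted p = 0.205). Col5a2 is the neighbour of Col3a1 among protein-coding genes of the mouse. Col5a1 had 354.6, 285.1 and 514 in duodenal tumors against 491.8, 449.2 and 577.6 in cecal tumors, which overlapped. Its log2 fold was 0.42 ± 0.22 (limma adjusted p = 0.299), and its other probe sets had 0.13 and 0.31. Col5a3 was dim, with 128.7, 83.5 and 84.8 in duodenal tumors against 145.8, 157.1 and 203 in cecal tumors (log2 fold 0.69 ± 0.22 SE, limma adjusted p = 0.0945).

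**Figure D2:**
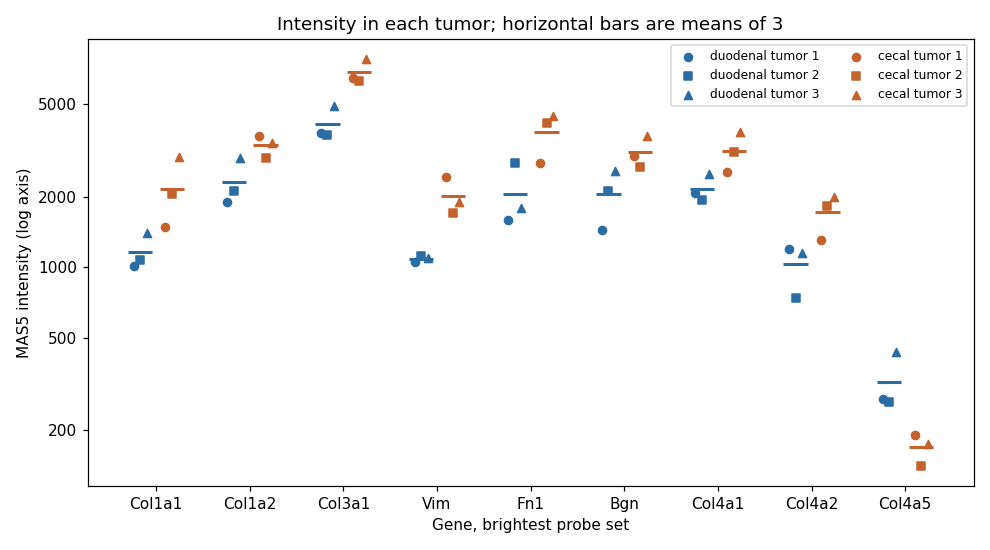
Points are intensities of single tumors on a log axis, by the brightest probe set of 9 member genes, and bars are means of 3 tumors; marker shape gives the replicate number. Every cecal tumor lies above every duodenal tumor for Vim and Col3a1, Fn1 overlaps slightly between sites, and Col4a5 is higher in duodenal tumors while Col4a1 and Col4a2 have higher means in cecal tumors.

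The stretches before the annotated starts of the called genes with an entry in the RefSeq promoter table (build GRCm38.p6) are printed so that the genes called higher can be set beside the one called lower. Each run is the 250 bases before the start, 5′ to 3′ on the gene's own strand, which is the plus strand for all of them. Capitals mark 3 searched motifs on either strand, the CCAAT box (CCAAT), a GC box (GGGCGG) and a TATA box (TATAAA), none of which overlap here. Col1a2 is at chr6:4505368-4505617, Col3a1 at chr1:45311288-45311537, Vim at chr2:13574061-13574310 and Col4a5 at chrX:141475169-141475418.
Col1a2: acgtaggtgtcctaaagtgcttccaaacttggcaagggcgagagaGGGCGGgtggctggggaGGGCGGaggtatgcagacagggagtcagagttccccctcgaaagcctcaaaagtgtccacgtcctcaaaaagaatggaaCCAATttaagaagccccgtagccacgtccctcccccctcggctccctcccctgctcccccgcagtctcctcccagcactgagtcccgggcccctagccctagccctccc
Col3a1: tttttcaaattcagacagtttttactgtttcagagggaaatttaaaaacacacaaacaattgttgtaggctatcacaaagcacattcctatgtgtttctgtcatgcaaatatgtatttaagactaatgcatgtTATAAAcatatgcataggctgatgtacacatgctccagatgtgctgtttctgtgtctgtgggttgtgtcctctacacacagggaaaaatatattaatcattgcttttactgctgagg
Vim: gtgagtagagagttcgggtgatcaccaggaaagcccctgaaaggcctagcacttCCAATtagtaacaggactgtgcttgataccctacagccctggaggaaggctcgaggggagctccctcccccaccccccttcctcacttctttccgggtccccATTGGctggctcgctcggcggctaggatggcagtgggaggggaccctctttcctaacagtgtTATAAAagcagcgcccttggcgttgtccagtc
Col4a5: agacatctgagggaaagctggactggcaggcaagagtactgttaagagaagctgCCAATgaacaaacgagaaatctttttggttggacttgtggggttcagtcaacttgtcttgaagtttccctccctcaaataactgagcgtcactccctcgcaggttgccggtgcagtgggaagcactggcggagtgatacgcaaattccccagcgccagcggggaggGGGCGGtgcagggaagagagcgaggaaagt

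Col1a2 held 2 GC boxes and 1 CCAAT box, Col3a1 held 1 TATA box, Vim held 2 CCAAT boxes and 1 TATA box, and Col4a5 held 1 CCAAT box and 1 GC box. The TATA box of Vim began 32 bases before the annotated start. Windows of the same length hold a CCAAT box in 33.8%, a GC box in 32.7% and a TATA box in 12.4% of all 32851 promoters of the table. The table matched 21 of the 33 tested member genes with 26 windows, which held these motifs in 30.8%, 53.8% and 19.2%. A match is a description of the letters and not a site of binding.

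Basement membrane collagens went in both directions. Col4a1 and Col4a2 encode the chains of the network found in nearly all basement membranes, from genes that lie head to head. Their annotated starts are 21 bases apart on opposite strands. Col4a1 had 2077.3, 1936.8 and 2511.6 in duodenal tumors against 2555.4, 3110.2 and 3797.1 in cecal tumors. The sites did not overlap, though cecal tumor 1 was just above duodenal tumor 3, and the log2 fold of 0.52 ± 0.17 (SE) did not pass (limma adjusted p = 0.1) and passed with the block (0.0342). Col4a2 had 1201.7, 741.9 and 1155.3 in duodenal tumors against 1315.9, 1840.3 and 1998.5 in cecal tumors, with no overlap (log2 fold 0.73 ± 0.23 SE; limma adjusted p = 0.0858, or 0.0743 with the block).

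Col4a5, a chain of a second type IV network found in a narrower set of basement membranes, was lower in cecal tumors. Its brighter probe set had 272.7, 265.2 and 432.1 in duodenal tumors against 190.7, 141.4 and 175.2 in cecal tumors. Every cecal tumor was below every duodenal tumor, and duodenal tumor 3 stood highest. The log2 fold was -0.85 ± 0.22 (SE; limma adjusted p = 0.0472). A dimmer probe set, at 162.3, 175.6 and 239.5 in duodenal tumors against 102.3, 123.2 and 112 in cecal tumors, had a log2 fold of -0.68 ± 0.19 (limma adjusted p = 0.0657). The 95% intervals of the log2 fold were -1.35 to -0.35 for Col4a5, 0.14 to 0.91 for Col4a1 and 0.22 to 1.25 for Col4a2. The Col4a5 call was lost without any one array except duodenal tumor 2 (adjusted p = 0.0753 to 0.16), with quantile normalization (0.0713), with median centring (0.068) and when dim probe sets were left in (0.0797). Col4a6, its neighbour and partner chain, was too dim to be tested.

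Type VI collagen, the beaded filament that anchors cells to the interstitial matrix, had positive folds in all 4 probe sets. Col6a3 had 705.3, 746.6 and 874.5 in duodenal tumors against 1156.3, 1001 and 1325.3 in cecal tumors. The sites did not overlap, and the log2 fold of 0.57 ± 0.15 (SE) narrowly missed the threshold (limma adjusted p = 0.0525) and passed with the block (0.0357). Col6a1 had 1034.9, 1025.5 and 1365.4 in duodenal tumors against 1542.6, 1337.6 and 1682.9 in cecal tumors (log2 fold 0.42 ± 0.16 SE, limma adjusted p = 0.153). Col6a2 had 1261.4, 1302.4 and 1801.9 in duodenal tumors against 1714.9, 1432.1 and 1936.7 in cecal tumors (log2 fold 0.23 ± 0.18 SE, limma adjusted p = 0.504). In both genes duodenal tumor 3 overlapped the cecal range.

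Collagens that bind to fibril surfaces, the FACIT class, had 4 tested genes, none of which passed. A positive fold was found in 1 of the 4, beside 44.1% of all tested probe sets. Col16a1 had 819.5, 468.3 and 492 in duodenal tumors against 270.3, 383.9 and 362.3 in cecal tumors. All cecal tumors were lower (log2 fold -0.75 ± 0.24 SE, limma adjusted p = 0.0931). Col9a3, a chain of type IX collagen best known from cartilage, had 186.8, 242 and 276.8 in duodenal tumors against 10.1, 172.2 and 104.2 in cecal tumors. It did not overlap either, but cecal tumor 1 stood far below the rest, and the log2 fold of -1.57 ± 0.63 had a wide error (limma adjusted p = 0.182). Its log2 fold was -0.72 without cecal tumor 1. Col14a1 had 215.8, 133.5 and 299.5 in duodenal tumors against 183.7, 149 and 164.8 in cecal tumors, which overlapped (log2 fold -0.29 ± 0.26 SE, limma adjusted p = 0.573). Col12a1 had a log2 fold of 0.39 ± 0.24 (limma adjusted p = 0.383).

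The multiplexins, proteoglycan collagens of vascular and epithelial basement membranes, overlapped between the sites. Col18a1, whose end fragment is endostatin, had 1130.2, 974.3 and 1348.4 in duodenal tumors against 999.2, 1395.6 and 1553.6 in cecal tumors (log2 fold 0.18 ± 0.19 SE, limma adjusted p = 0.639). Col15a1 had 159.9, 72.2 and 129.6 in duodenal tumors against 161.8, 129.5 and 153.6 in cecal tumors (log2 fold 0.32 ± 0.27 SE, limma adjusted p = 0.536).

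**Figure D3:**
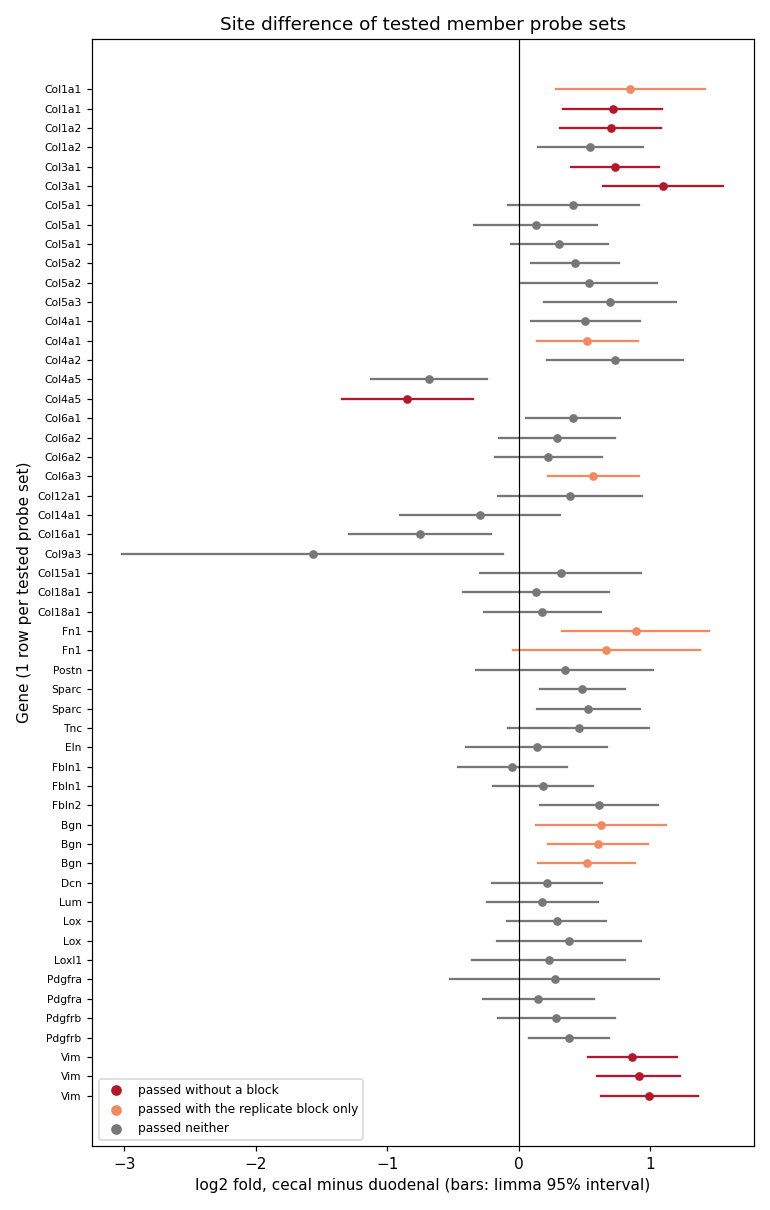
Each row is 1 of the 53 tested member probe sets, with its log2 fold of cecal over duodenal tumors as a point and the limma 95% interval as a bar; colour marks those that passed without a block (8), with the replicate block only (8) or neither. The points to the left of 0 are Col4a5, Col14a1, Col16a1, Col9a3 and 1 probe set of Fbln1.

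Among matrix glycoproteins, all 6 probe sets had positive folds and none passed without the block. Fn1, fibronectin, a scaffold on which collagen fibrils assemble, had 1596.3, 2801.2 and 1804.1 in duodenal tumors against 2797.1, 4147.4 and 4471.4 in cecal tumors. Duodenal tumor 2 was just above cecal tumor 1, the lowest of its site, so the groups overlapped by a small margin. The log2 fold of 0.89 ± 0.24 (SE) was the largest positive fold of any member gene by its brightest probe set. It did not pass (limma adjusted p = 0.0609) and passed with the block (0.0116). Of the 6 fits that leave out an array it passed in 1, without duodenal tumor 2 (0.018). In the others adjusted p reached 0.186. The other Fn1 probe set had a log2 fold of 0.67 ± 0.31 (limma adjusted p = 0.245, or 0.0474 with the block).

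Sparc, a collagen-binding glycoprotein of remodelling tissue, had 1687, 1801.5 and 2340.6 in duodenal tumors against 2754.8, 2612.3 and 2724.3 in cecal tumors. The groups did not overlap, and the cecal tumors lay close together. Its log2 fold was 0.48 ± 0.14 (SE; limma adjusted p = 0.0737), and that of its other probe set was 0.53 ± 0.17 (limma adjusted p = 0.0986). Each probe set passed in 1 of the 6 fits that leave out an array. The former passed without duodenal tumor 3 (0.0251) and the latter without cecal tumor 1 (0.0348). In the other such fits neither passed, with adjusted p up to 0.229 and 0.24.

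Postn and Tnc, matricellular proteins of activated stroma, overlapped widely. Postn had 825.8, 1210.3 and 1755.7 in duodenal tumors against 2090.2, 1161 and 1509.7 in cecal tumors (log2 fold 0.35 ± 0.29 SE, limma adjusted p = 0.54). Tnc had 943.5, 531.3 and 609 in duodenal tumors against 741.6, 1107.1 and 978.3 in cecal tumors (log2 fold 0.46 ± 0.24 SE, limma adjusted p = 0.295). The highest tumor was cecal tumor 1 for Postn and cecal tumor 2 for Tnc.

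The small leucine-rich proteoglycans, which coat collagen fibrils and limit their width, had positive folds in all 5 tested probe sets. None passed without the block, and the genes were not tested against each other. Bgn, biglycan, had 1446.5, 2131.1 and 2579.4 in duodenal tumors against 2991, 2700.8 and 3656.3 in cecal tumors. Its 3 probe sets, none of which overlapped between sites, had log2 folds of 0.63, 0.60 and 0.52. None passed without the block (limma adjusted p = 0.121, 0.0604 and 0.0913), and all 3 passed with it (0.0419, 0.0134 and 0.0419). Dcn, decorin, had 3177.9, 2561.9 and 3365 in duodenal tumors against 4242.1, 2706.6 and 3740.8 in cecal tumors. Its log2 fold was 0.22, with a 95% interval of -0.21 to 0.64 (limma adjusted p = 0.546). Lum, lumican, the neighbour of Dcn among protein-coding genes, had 593.8, 654.9 and 634.4 in duodenal tumors against 826.2, 532.2 and 820 in cecal tumors. Its log2 fold was 0.18, with a 95% interval of -0.24 to 0.60 (limma adjusted p = 0.623). In both genes cecal tumor 2 was the lowest cecal tumor and lay inside or below the duodenal range.

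No elastic fibre gene passed the test. Fbln1, fibulin 1, had 454.5, 584.1 and 509.7 in duodenal tumors against 484.8, 614.7 and 675.2 in cecal tumors (log2 fold 0.19 ± 0.17 SE, limma adjusted p = 0.568). Its other probe set had a log2 fold of -0.05, the one gene whose tested probe sets differed in sign, and that fold was 0.011 with quantile normalization and 0.0066 with median centring. Eln, elastin, had 145, 143.2 and 226.2 in duodenal tumors against 144.7, 193.8 and 228 in cecal tumors (log2 fold 0.14 ± 0.23 SE, limma adjusted p = 0.785). Fbln2, fibulin 2, was below the 40th percentile in all duodenal tumors (80.5, 89 and 82.5) and above it in all cecal tumors (133.6, 113.2 and 167.2). It entered the test through the cecal tumors alone and was at least 1.31-fold higher there (limma adjusted p = 0.0992).

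The lysyl oxidases, which cross-link collagen and elastin, overlapped between the sites. Lox had 417.6, 363.7 and 489.6 in duodenal tumors against 440.6, 557.1 and 562.9 in cecal tumors (log2 fold 0.29 ± 0.16 SE, limma adjusted p = 0.345). Loxl1 had 277.1, 255.1 and 453.5 in duodenal tumors against 296.7, 365.3 and 488.9 in cecal tumors (log2 fold 0.23 ± 0.25 SE, limma adjusted p = 0.647).

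Vim, the intermediate filament protein of fibroblasts, endothelium and leukocytes, had the smallest adjusted p-values of the members. Its brightest probe set had 1056.1, 1115.7 and 1093.3 in duodenal tumors against 2434.3, 1710.9 and 1904.2 in cecal tumors. The duodenal tumors lay close together, every cecal tumor was higher, and cecal tumor 1 was the highest. The log2 fold was 0.86 ± 0.15 (SE; limma adjusted p = 0.00981). The other 2 probe sets had 0.91 and 0.99 (limma adjusted p = 0.0056 and 0.00769). All 3 calls held in each alternative that was run, the 6 that leave out an array among them. The brightest Vim probe set is of a kind, marked by an x in its name, that may share probes with other transcripts, and the other 2 are not.

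The receptors for platelet-derived growth factor, which mark fibroblasts (Pdgfra) and pericytes (Pdgfrb), did not pass. Pdgfra had 1014.1, 1676.9 and 1465.1 in duodenal tumors against 1447, 1497.1 and 1578.1 in cecal tumors. Its log2 fold was 0.15, with a 95% interval of -0.27 to 0.57 (limma adjusted p = 0.687), and it was -0.057 without duodenal tumor 1, the lowest array. Pdgfrb had 348.5, 389.3 and 318.4 in duodenal tumors against 461, 451.7 and 473.5 in cecal tumors, with no overlap (log2 fold 0.38 ± 0.13 SE, limma adjusted p = 0.124). A dimmer Pdgfrb probe set, at 104.3 to 109.2 in duodenal and 108.3 to 165.2 in cecal tumors, overlapped.

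The members also varied together among tumors of a site. Duodenal tumor 3 was the highest duodenal tumor in 20 of the 33 tested genes and the lowest in 1. Cecal tumor 3 was the highest cecal tumor in 20 and the lowest in 0. Over all tested probe sets these arrays were the highest of their site in 33.6% and 35.5%. The median deviation from the site mean was 0.21 for duodenal tumor 3 and 0.19 for cecal tumor 3 on the log2 scale, against -0.14 to -0.057 for the other 4 tumors. Duodenal tumor 2 was the lowest of its site in 18 genes. These deviations share each array's RNA and the common scaling, so the genes are not independent of each other. Of 17 genes with several tested probe sets, 1 had folds of both signs and 3 (Col1a1, Col1a2 and Col4a5) had some probe sets past the threshold and some not.

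Other genes of collagen and matrix biology were read from lists of genes outside the members. Of 67 tested genes in 4 lists, 9 were higher and 2 lower in cecal tumors, beside 5.7% and 4.73% of all tested genes (limma, by brightest probe set). The enzymes that modify and process collagen split, with 7 positive and 11 negative folds among 18 tested genes, a median of -0.06 (all genes -0.05), and 2 higher calls. Tgm2, a transglutaminase that cross-links matrix proteins, had 2366.4, 1696.3 and 1883.5 in duodenal tumors against 5220, 3373.8 and 4396 in cecal tumors (log2 fold 1.11 ± 0.19 SE, limma adjusted p = 0.00894). The groups were far apart, and the call held without any one array. Pcolce, which enhances the trimming of procollagen, had 385.7, 341.5 and 359.5 in duodenal tumors against 607.8, 467.9 and 606.9 in cecal tumors (log2 fold 0.60 ± 0.15 SE, limma adjusted p = 0.0428), a call kept without cecal tumor 2 and lost without any other array (adjusted p = 0.0913 to 0.13). Sec23a, of the coat that exports procollagen from the endoplasmic reticulum, and the prolyl hydroxylase subunit P4ha1 had log2 folds of 0.47 and 0.51 and did not pass (limma adjusted p = 0.086 and 0.124). The collagen chaperone Serpinh1 had 0.26 (limma adjusted p = 0.466) and was named after its values were seen.

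Of 27 other matrix glycoproteins and proteoglycans, 4 were higher and 2 lower in cecal tumors, beside 5.7% and 4.73% of all tested genes. The median log2 fold was 0.23. Thbs2, thrombospondin 2, a matricellular protein of fibroblasts, had 39.4, 51 and 27.9 in duodenal tumors against 127.8, 139.2 and 149.9 in cecal tumors. It was below the 40th percentile in every duodenal tumor, entered the test through the cecal tumors, and was at least 1.33-fold higher there (limma adjusted p = 0.00582). Nid1, nidogen, which links laminin to type IV collagen, had 389.6, 483.6 and 473.5 in duodenal tumors against 756.4, 701 and 750.7 in cecal tumors (log2 fold 0.70 ± 0.14 SE, limma adjusted p = 0.0157). Spon2 had a log2 fold of 1.01 ± 0.20 (limma adjusted p = 0.0168) and Vcan, versican, named after its values were seen, one of 0.88 ± 0.19 (limma adjusted p = 0.0228). The 2 lower genes were Npnt, nephronectin, an integrin ligand of epithelial basement membranes, and Ltbp4, which binds latent TGF-beta in the matrix and was named after its values were seen. Npnt had 641.7, 915.4 and 863.2 in duodenal tumors against 80.8, 257.3 and 193.3 in cecal tumors (log2 fold -2.20 ± 0.35 SE, limma adjusted p = 0.00741). Ltbp4 had a log2 fold of -0.77 ± 0.16 (limma adjusted p = 0.0243). The calls of Thbs2 and Npnt held without any one array, and those of Nid1, Spon2, Vcan and Ltbp4 were each lost without 3 to 5 of the 6 arrays in turn (adjusted p = 0.0507 to 0.0906 where lost).

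Of 6 tested collagen receptors and uptake genes 1 (16.7%) was higher, beside 5.7% of all tested genes. This was Fap, a protease of activated fibroblasts, at 66.2, 53.9 and 31.2 in duodenal tumors against 199.2, 114.4 and 131.4 in cecal tumors. It too was dim in all duodenal tumors, entered the test through the cecal tumors and was at least 1.38-fold higher in the cecum (limma adjusted p = 0.0262, lost without duodenal tumor 3 or any cecal tumor, 0.0501 to 0.0974). Itga2, an integrin chain that binds collagen, had a log2 fold of 0.67 (limma adjusted p = 0.0715). Of 16 TGF-beta ligands and response genes, 2 (12.5%) were higher, beside the same 5.7%. They were Smad4 (log2 fold 0.48 ± 0.11 SE, limma adjusted p = 0.0314) and the growth factor Pdgfa (0.61 ± 0.15, limma adjusted p = 0.0447). The Smad4 call was lost without any one array (0.0666 to 0.0996), and that of Pdgfa without any one array except duodenal tumor 2 (0.0744 to 0.161). Tgfb1 had a log2 fold of -0.18 (limma adjusted p = 0.688), and Tgfb2 and Tgfb3 were below the 40th percentile on every array. Those TGF-beta ligands were named after their values were seen.

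**Figure D4:**
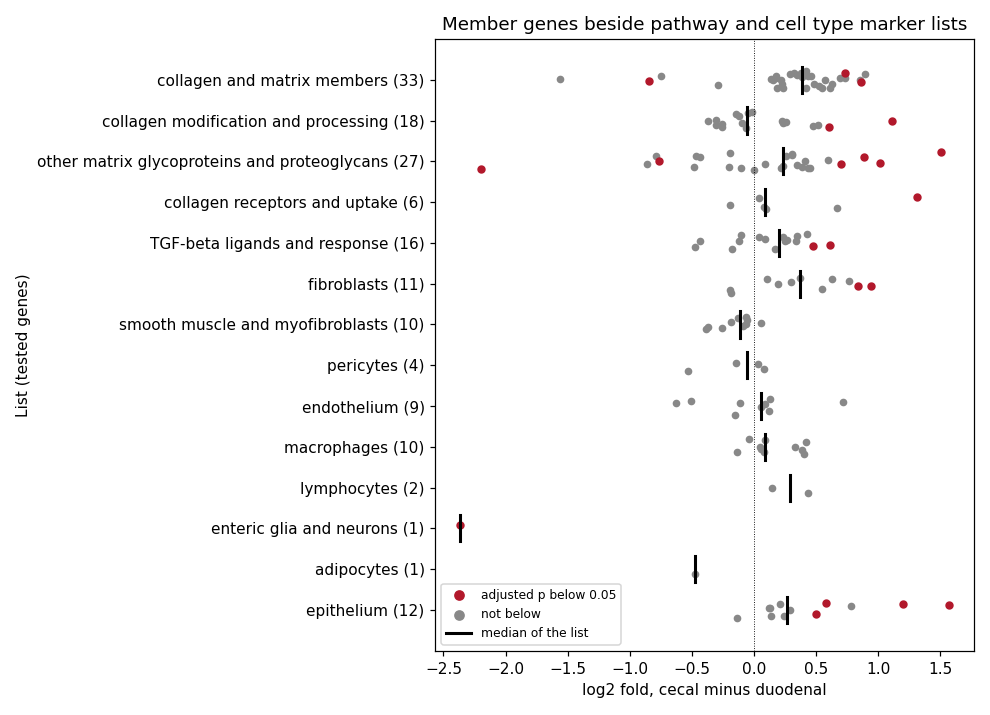
Points are log2 folds of tested genes, cecal over duodenal, for the 33 member genes and each pathway or cell type marker list with a tested gene; red points passed the test and black bars are medians. The members' median is 0.39, and those of the lists run from -2.37 (enteric glia, 1 gene) to 0.37 (fibroblasts). Among the others are 0.29 for lymphocytes (2 genes), 0.27 for epithelium, 0.23 for other matrix genes and -0.11 for smooth muscle markers.

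Markers of the cell types that make or border the matrix were measured beside the members, and their part in the differences was not tested. Of 11 tested fibroblast markers, 2 (18.2%) were higher in cecal tumors, beside 5.7% of all tested genes. They were Thy1 (log2 fold 0.94 ± 0.22 SE, limma adjusted p = 0.0326) and the gelatinase Mmp2 (0.84 ± 0.17, limma adjusted p = 0.0201). The Thy1 call was lost without any one array except duodenal tumor 1 (0.0713 to 0.105), and that of Mmp2 when duodenal tumor 1 or either of cecal tumors 2 and 3 was left out (0.0567 to 0.0857). The list's median was 0.37, and its 19 genes on the array summed to 4325.1 to 6036 in duodenal and 6620.2 to 6884.8 in cecal tumors. Of the transcription factors in the list, Twist1, Twist2, Prrx1, Foxl1 and Gli1 were below the 40th percentile on every array. Tcf21 was above it on all 6 arrays (log2 fold 0.55, limma adjusted p = 0.249). Foxf1 was above it on 4 (log2 fold 0.11, limma adjusted p = 0.807), and Meox1 on 2, too few to be tested. These factors were named after their values were seen. Serping1, the brightest of the list, had 1255, 2314.7 and 2119.2 in duodenal tumors against 1766.4, 2284 and 2284.4 in cecal tumors, which overlapped.

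None of 10 smooth muscle and myofibroblast markers passed (median -0.11, 9 negative folds), and their sums of 7167.8 to 12427.9 in duodenal and 8633.7 to 10187.4 in cecal tumors overlapped. Acta2, smooth muscle actin, had 4373.2, 3029.2 and 4385.4 in duodenal tumors against 3272.5, 3713.3 and 4208 in cecal tumors. Duodenal tumor 2 had the lowest sum of this list. None of 4 pericyte, 9 endothelial, 10 macrophage and 2 lymphocyte markers passed, with medians of -0.06, 0.05, 0.09 and 0.29. The pericyte sum was 1849.4 to 2675.4 in duodenal and 1505.7 to 1830.4 in cecal tumors, without overlap, with 2 positive and 2 negative folds. Rgs5, the brightest pericyte marker and the larger part of this sum on every array, had 1998.7, 1241.7 and 1493.3 in duodenal tumors against 1239.9, 1109.3 and 872.7 in cecal tumors. Without Rgs5 the pericyte sums overlapped. The log2 fold of Rgs5 was -0.54 ± 0.20 (SE; limma adjusted p = 0.154). The endothelial and lymphocyte sums overlapped. The macrophage sum was 9341.8 to 10809.5 in duodenal and 11021.1 to 13361.6 in cecal tumors. Of 12 epithelial markers, all tested, 4 (33.3%) were higher in cecal tumors, beside 5.7% of all tested genes. Their median log2 fold was 0.27, and their sums were 74824.8 to 85381.9 in duodenal and 94940.6 to 98467.6 in cecal tumors. The epithelial 4 were Vil1, Cldn7, Cldn3 and Cdx1, of which Cdx1 also marks position along the gut. S100b, a marker of enteric glia, was lower in cecal tumors, where all 3 arrays had it below the 40th percentile (20.9, 21.2 and 14.6 against 119.8, 161.9 and 223.5, at least 1.60-fold higher in duodenal tumors, limma adjusted p = 0.00138). It entered the test through the duodenal tumors alone. The other 7 glial and neuronal markers on the array were too dim to be tested. Of these, Sox10 read 62.8, 51.8 and 52.9 in duodenal tumors against 97.2, 89.4 and 54.9 in cecal tumors. Gfap read 48.6, 56.1 and 68.4 against 65, 43.8 and 80.7. Prph read 51.9, 72.7 and 28.9 against 9.3, 14.4 and 7.2, without overlap. Uchl1, Elavl4, Tubb3 and Ret had lower means in cecal tumors and overlapped. These dim markers were named after their values were seen. With S100b, the 8 genes on the array summed to 447.9 to 534.4 in duodenal and 296.1 to 332 in cecal tumors. Without S100b the sums of the other 7 overlapped, so the separation rests on that gene. Of the mesothelial markers none was tested, and Upk3b and Wt1 were below the 40th percentile on every array. Msln, the remaining one, read 97.3, 87.3 and 126.2 in duodenal tumors against 28.5, 25.5 and 26.4 in cecal tumors, without overlap. Of the adipocyte markers, Adipoq, Lep and Cidec were below it on every array. Fabp4, which endothelium and macrophages also express, was the one tested, at 674.7, 463.6 and 844.9 in duodenal tumors against 565.4, 472.9 and 356.4 in cecal tumors (log2 fold -0.48 ± 0.24 SE, limma adjusted p = 0.293). The sites overlapped.

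The labels were compared with tissue genes named after their values were seen. Car1, of large intestine surface cells, was at 10.1 to 32.4 in duodenal and 10672.3 to 11498.6 in cecal tumors. Pdx1, of duodenum, antrum and pancreas, was at 845.9 to 1051.7 and 47.8 to 70.9, and Gkn1, of the stomach, at 12495.9 to 17057.3 and 29.3 to 71.8. Y-linked genes gave signal in 4 tumors, the tumors 1 and 3 of each site. With those 4 arrays alone, 4 member probe sets were higher in cecal tumors and 0 lower, and 5.01% of all tested probe sets were called in either direction. The ratio of 3′ to 5′ control probe sets, a measure of RNA integrity, was 0.713 to 0.798 for Gapdh and 1.23 to 1.37 for Actb, with overlapping sites.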

How the data were processed

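Tumor RNA was hybridised to 1 array per mouse, and the deposited values are linear intensities that the authors made using MAS5 software, as named per the submitters' processing notes. The sources used here give neither its version nor its scaling, and no detection calls. Gene names came from the annotation of the platform, which gives 1 gene for 20380, several for 691 and none for 1555 of 22690 probe sets; 64 controls were left out. All 51 member genes were found in a RefSeq gene table of GRCm38.p6, used for names and neighbours.

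A probe set was tested when above its array's 40th percentile on at least 3 of 6 arrays, which here stands in for detection. The log2(intensity + 16) values were modelled in R 4.3.3 by limma 3.58.1 (functions lmFit and eBayes, the latter with a trend on intensity). Tests were two-sided and p-values were adjusted by Benjamini-Hochberg over 13866 probe sets, at a threshold of 0.05. The offset understates folds of dim genes. Folds are cecal minus duodenal, and n is 3 tumors per site throughout. Counts by gene use the probe set with the highest mean. Where all arrays of a site were below the percentile, the fold is a bound, the bright site's mean against the percentile level or the dim value, whichever is higher. Such a bound takes no account of sampling error. The number of arrays limits precision.

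Deviations from site means had correlations of 0.274, 0.299 and 0.203 for tumors sharing a replicate number and of -0.2 to -0.026 otherwise. Deviations cancel within a site, so positive values for one set of pairs make the others negative on balance. The contrast between them is thus not separate evidence of pairs. As each correlation for a shared number was above 0.1, a second fit, with the replicate block, took samples of one number as pairs. The main fit, which gave the errors, intervals and calls not marked as blocked, did not pair them. The pairing rests on the data, and no label ties samples of one number to a litter or a day. The blocked fit is therefore given beside results whose call it changes.

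Members, lists and alternatives were chosen with earlier results of these data known. Named members are those called with or without the block, those with no overlap between sites, the brightest 2 of each class, and, chosen after their values were seen, the 4 other tested genes. Up to 4 genes with the smallest p of each pathway list and up to 3 brightest of each marker list could be named, and others are marked as named after their values were seen or were called. The procedure was tested on simulated data. Figures used Python 3.11.15 and matplotlib 3.10.9.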

Additional observations from a re-analysis of the deposited data

How the results depend on the processing

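For 49 probe sets of the 29 named members other than Col12a1, Postn, Tnc and Lum, 813 alternative values were computed. Of these, 744 kept direction and side of the threshold, 27 lost the call, 33 gained it and 9 changed sign. None of those that changed sign was past the threshold. The members called higher (7) numbered 15 with the replicate block, 17 with array weights, 5 with dim probe sets left in (the Col1a1 and Col1a2 calls lost), 4 with the arrays that had Y-linked signal only, and 4 to 8 when 1 array was left out. The 1 called lower became 0 with median centring, quantile normalization, dim probe sets left in or the Y-linked arrays only, 2 with no intensity trend or array weights, and 0 to 1 when 1 array was left out. Over all probe sets, 1290 calls became 1939 with array weights, 1571 with the replicate block and 695 with the Y-linked arrays only. They became 1138 with dim probe sets left in, 1284 with quantile normalization or median centring, and 658 to 1194 without 1 array. By gene, 2 higher calls became 6 with the mean over the probe sets of a gene. Pathway genes called numbered 11, or 13 with the block, which changed no other call given here except those of Ogn, Spon1 and Krt20, which passed only with it. Signs turned for a dim Col5a1 probe set (-0.026 with the Y-linked arrays, -0.0056 to 0.23 without 1 array), the dimmer Col18a1 probe set (-0.085 to 0.36), Eln (-0.0013 to 0.33), the dimmer Fbln1 probe set (0.011 with quantile normalization, 0.0066 with median centring, -0.22 to 0.071 without 1 array) and both of Pdgfra (-0.17 to 0.52 and -0.057 to 0.30). Offsets of 1 and 64 and a filter on the mean left the member counts at 7 and 1. The cause of these changes was not tested. Leaving out an array also leaves fewer samples, and with 3 arrays a site small differences stay within the error.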
